A study of Mus musculus with 9 samples.

Results

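The fragments described here are the long pieces from the 5' end of a glycine tRNA with the anticodon GCC, listed under the parent name Gly-GCC-2-M3. They were taken as the rows of class tRF-5c or tiRNA-5 whose name ends in that parent, which gave 6 of the 200 listed fragments, 1 for each length between 28 and 33 nt. Small RNA was sequenced from the back of the eye of C57BL/6 mice, as a complex of sclera, vascular choroid and retinal pigment epithelium (RPE), the pigmented cells that border the retina. The 3 day 3 and 3 day 7 libraries came from mice aged 6 to 8 weeks at laser treatment (532 nm, 110 mW, 100 ms), in which the laser breaks Bruch's membrane between RPE and choroid and new choroidal vessels then grow. The 3 control libraries carried the same strain and tissue labels and no laser label, and their age is not given in the sources used here. Nothing in the labels ties the libraries of a group to separate animals, and the spread behind each p-value may therefore be technical. The table holds tRNA fragments only, so the tissue could not be checked against marker genes.

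A tRNA carries an amino acid to the ribosome and reads the codon with its anticodon loop. Angiogenin, a secreted ribonuclease also known for promoting vessel growth, cuts tRNAs in or near that loop under stress and leaves 5' and 3' fragments called tiRNAs. Fragments from the 5' end that stop short of the anticodon are called tRF-5c when they are long, and 5' fragments of glycine tRNA GCC are among the abundant small RNAs of mouse serum and sperm.

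The 6 fragments share their first base and differ at their 3' end alone, so each is the next shorter fragment plus a single base. They are shown because the position at which the fragments end is what the results compare. That end is called a cut here for short, and whether each end was made by a cut was not tested. The capital marks the last base:
tRF-1:28-Gly-GCC-2-M3: gcattggtggttcagtggtagaattctC
tRF-1:29-Gly-GCC-2-M3: gcattggtggttcagtggtagaattctcG
tRF-1:30-Gly-GCC-2-M3: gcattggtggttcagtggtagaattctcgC
tRF-1:31-Gly-GCC-2-M3: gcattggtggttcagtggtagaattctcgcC
tRF-1:32-Gly-GCC-2-M3: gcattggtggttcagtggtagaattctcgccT
tiRNA-1:33-Gly-GCC-2-M3: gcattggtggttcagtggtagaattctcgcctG

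In the deposited alignments each fragment matched 3 tRNAs, tRNA-Gly-GCC-2-1, tRNA-Gly-GCC-3-1 and tRNA-Gly-GCC-4-1, and no tRNA of another anticodon. The first of these is shown with its anticodon in capitals, to place the cuts:
tRNA-Gly-GCC-2-1: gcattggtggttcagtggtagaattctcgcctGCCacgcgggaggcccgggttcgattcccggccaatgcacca
The anticodon occupies positions 33 to 35 of the 74 nt, counted from 1 at the 5' end with the added CCA tail included. The 31 nt fragment ends 1 base before the anticodon, the 32 nt fragment ends directly before it and the 33 nt fragment takes in its first base. The neighbouring bases of the same strand before and after the cut are C/G for 28 nt, G/C for 29 nt, C/C for 30 nt, C/T for 31 nt, T/G for 32 nt and G/C for 33 nt, given in DNA letters. The other two tRNAs differ from the first by C54T and by A56G, counted the same way, both beyond the end of the longest fragment. Counts of the 6 fragments therefore cannot be assigned to a single gene. RefSeq (GRCm38.p6) lists 14 genes of glycine tRNA GCC, on chromosomes 1, 2, 3, 4, 8, 11 and 13, which were not matched to the deposited names. Only the 31 nt fragment carried an identifier of the fragment database tRFdb, 5004b.

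Mapped reads numbered between 1204173 and 2155977 per library, and the listed fragments took between 56.0% and 78.6% of them. Correlations of log2 CPM (counts scaled to the mapped reads) lay between 0.934 and 0.972 within groups, and no pair of libraries was a copy of another (smallest chi-square per degree of freedom 20.6). Day 7 replicate 1 stood apart in the lengths of the 6 fragments, with 43.2% of their counts at 32 and 33 nt against 21.9% and 25.7% in the other day 7 libraries. Day 7 replicates 2 and 3 had the lowest scaling factors of TMM (trimmed mean of M values), 0.783 and 0.749, against 0.962 to 1.14 in the other libraries.

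The 6 fragments made up 53.2%, 51.5% and 47.5% of the mapped reads of the day 3 libraries, 69.1%, 73.5% and 71.2% of the day 7 libraries, and 70.6%, 70.3% and 70.1% of the control libraries. Every day 3 library lay below every day 7 and every control library, and the day 7 and control libraries overlapped. The day 3 mean of 50.8% ± 2.94 stood against a control mean of 70.3% ± 0.253 (SD, n = 3 each), a difference of -19.5 percentage points (day 3 minus control; exact permutation p = 0.1, two-sided). With 3 libraries against 3 the smallest p that this test can give is 0.1, so it cannot pass 0.05. The day 7 mean of 71.3% ± 2.19 was 20.5 points above day 3 (exact permutation p = 0.1) and 0.976 points above control (exact permutation p = 0.7). In a library the shares must add up, so a lower share of these fragments and a higher share of all other mapped reads cannot be told apart. Of the listed counts alone, the 6 fragments took 86.3% at day 3, 92.5% at day 7 and 92.7% in controls.

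A single length carried most of this. By mean CPM over the 9 libraries, the 31 nt fragment ranked first of 200, the 32 nt fragment ranked 2, the 30 nt fragment 3, the 33 nt fragment 5, the 29 nt fragment 7 and the 28 nt fragment 13. CPM counts whole fragments, so these levels need no correction for length. Rank 4 was held by the 31 nt fragment of Gly-GCC-1. Levels were far lower on each side of 31 nt: in the controls 30 nt and 32 nt averaged 101954 ± 14041 and 90629 ± 10400 CPM, next to 491419 ± 10659 CPM for 31 nt, and their ranges overlapped.

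**Figure D1:**
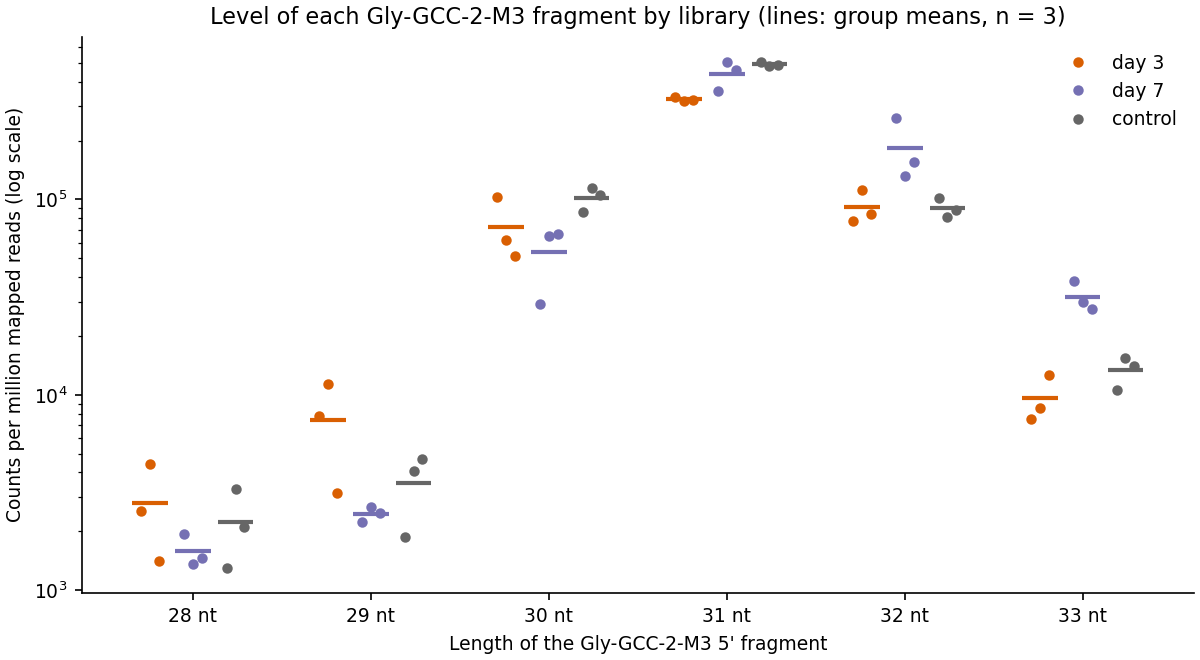
Level of the 6 Gly-GCC-2-M3 fragments, by length on the x axis, in CPM on a logarithmic y axis. Each point is a library (day 3 orange, day 7 purple, control grey) and each line a group mean (n = 3); the 33 nt fragment lies between 27373 and 38312 CPM in the day 7 libraries, above all libraries of day 3 and control.

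The most abundant fragment, at 31 nt, had 333939, 317363 and 322538 CPM at day 3. It had 359742, 504771 and 458071 CPM at day 7. In the controls it had 503688, 484432 and 486137 CPM. All day 3 libraries were lower than all control and all day 7 libraries, while day 7 spanned the controls, with replicate 1 the lowest of its group.

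The 32 nt fragment, cut directly before the anticodon, had 77620, 111706 and 84068 CPM at day 3. It had 260060, 131503 and 155990 CPM at day 7. In the controls it had 101896, 81397 and 88594 CPM. Day 3 and control overlapped, every day 7 library was above both, and day 7 replicate 1 was the highest of all.

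The 33 nt fragment, the tiRNA, had 7558, 8555 and 12600 CPM at day 3. It had 38312, 29813 and 27373 CPM at day 7. In the controls it had 10616, 15352 and 14080 CPM. The day 7 libraries again lay above all others, and this held for the 3 of them alike.

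The 30 nt fragment, cut 2 bases before the anticodon, had 102971, 62007 and 51391 CPM at day 3. It had 29061, 65080 and 66766 CPM at day 7. In the controls it had 86527, 113986 and 105351 CPM. Every day 7 library was below every control library, and day 3 spread over both groups.

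The shortest pair was the least abundant. The 29 nt fragment had 7777, 11359 and 3125 CPM at day 3, 2223, 2653 and 2473 CPM at day 7, and 1866, 4068 and 4695 CPM in the controls. The 28 nt fragment had 2536, 4412 and 1409 CPM at day 3, 1927, 1357 and 1459 CPM at day 7, and 1305, 3278 and 2096 CPM in the controls. At 29 nt, every day 7 library was below every day 3 library, and day 3 overlapped the controls through its replicate 3. At 28 nt all groups overlapped.

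The first comparison set day 3 against control. None of the 6 fragments passed at this time: 0 were called higher or lower at an adjusted p under 0.05, in edgeR's quasi-likelihood test fitted to all 200 fragments with Benjamini-Hochberg adjustment, while 21.5% of the 200 fragments were called, 10% as higher and 11.5% as lower. That split over all fragments, 20 higher and 23 lower, depended on the library sizes: it was 49 and 14 when they were the listed counts, and 5 and 68 when the reads of the 6 fragments were left out of them. At an unadjusted p under 0.05 there were 2 of the 6, the 29 nt fragment above control and the 31 nt fragment below, against 44% of the 200, and DESeq2 called 1, the 29 nt fragment, as higher. The log2 fold change was 1.07 at 29 nt (SE 0.450; adjusted p = 0.0811), and became 1.45 with an adjusted p of 0.0196 without day 3 replicate 3, its lowest library at that time. It was -0.64 at 31 nt (SE 0.267; adjusted p = 0.0811), and kept its value with an adjusted p of 0.00564 without day 7 replicate 1, through the spread shared by the 3 groups. For the other lengths the log2 fold changes were 0.32 at 28 nt, -0.51 at 30 nt, -0.04 at 32 nt and -0.51 at 33 nt, with adjusted p from 0.218 to 0.902; the sign at 28 nt turned when library sizes left out the reads of the 6 fragments, and that at 32 nt turned under other scalings. The median over the 6 fragments was -0.28, against -0.04 over all 200. The ranges of the groups did not overlap in 1 of the 6, the 31 nt fragment, against 41.5% of the 200.

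The question at day 7 was which lengths differed from control, and with TMM scaling the answer was the longest pair. The 33 nt and 32 nt fragments rose, 2 of the 6, while 4% of the 200 fragments were called in either direction, 3.5% as higher and 0.5% as lower. Over all fragments the 7 higher and 1 lower became 7 and 7 with mapped totals that were not scaled by TMM, 7 and 8 with the listed counts, and 7 and 5 without the reads of the 6 fragments. The 33 nt fragment averaged 31833 ± 5742 CPM at day 7 and 13349 ± 2451 CPM in controls (SD, n = 3 each), which gave 1.53 on the log2 scale (SE 0.320; edgeR adjusted p = 0.00428). The 32 nt fragment averaged 182518 ± 68261 CPM at day 7 and 90629 ± 10400 CPM in controls, which gave 1.22 (SE 0.280; edgeR adjusted p = 0.00829). The shorter lengths had log2 fold changes of 0.17 at 31 nt, -0.54 at 30 nt, -0.19 at 29 nt and -0.20 at 28 nt (adjusted p from 0.462 to 0.894), and the sign at 31 nt turned negative with mapped totals that were not scaled by TMM. With those totals the 30 nt fragment was called lower (-0.93, edgeR adjusted p = 0.0484). It was also called lower with the listed counts (-0.96, adjusted p = 0.0269), while 18 of 20 alternatives gave no call at 30 nt. Over the 6 fragments the median was -0.01, against 0.09 over all 200. Groups did not overlap in 3 of the 6, at 30, 32 and 33 nt, against 21% of the 200. The calls depended on the control libraries: leaving out control replicate 2 gave 1.49 at 33 nt (adjusted p = 0.0612) and 1.01 at 32 nt (adjusted p = 0.211), and leaving out control replicate 3 gave 1.18 at 32 nt (adjusted p = 0.0901).

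Day 7 was then set against day 3. In this contrast 3 of the 6 fragments rose, at 31, 32 and 33 nt, and 1 fell, at 29 nt, while 34.5% of the 200 fragments were called, 23% as higher and 11.5% as lower. Here too the split over all fragments, 46 higher and 23 lower, depended on the library sizes: it was 37 and 35 with RLE (relative log expression) factors, 30 and 39 with mapped totals alone, 9 and 63 with the listed counts, and 80 and 10 without the reads of the 6 fragments. The log2 fold change was 2.04 at 33 nt (SE 0.325; edgeR adjusted p = 0.000684), 1.26 at 32 nt (SE 0.281; adjusted p = 0.00410) and 0.81 at 31 nt (SE 0.268; adjusted p = 0.0254). At 29 nt it was -1.26 (SE 0.452; adjusted p = 0.0373), and at 28 and 30 nt it was -0.53 and -0.03 without passing. At 29 nt and above, the log2 fold change was larger at each longer length, an order that was not tested. The median of the 6 was 0.39, against 0.15 over all 200, and the groups did not overlap in 4 of the 6, at 29, 31, 32 and 33 nt, against 36% of the 200.

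The calls at 32 and 33 nt held without any single library, with log2 fold changes at 33 nt between 1.33 and 2.52 over all alternatives. At 32 nt the call was lost with the listed counts as library sizes (0.62, edgeR adjusted p = 0.0506). The call at 31 nt was lost in 13 of 20 alternatives. The log2 fold change was near 0 with the listed counts as library sizes (0.048, edgeR adjusted p = 0.848) and 0.44 with mapped totals alone (adjusted p = 0.0732). Among the other losses were DESeq2 (log2 fold change 0.59, adjusted p = 0.149) and fits without a single library: day 3 replicate 1 (0.87, adjusted p = 0.0637), day 3 replicate 2 (0.78, 0.0932), day 3 replicate 3 (0.77, 0.0622), day 7 replicate 2 (0.63, 0.0896) and day 7 replicate 3 (0.68, 0.0770). The call at 29 nt was lost in 8 of 20, among them fits without day 3 replicate 1 (-1.19, adjusted p = 0.0918), day 3 replicate 2 (-0.84, 0.176), day 7 replicate 1 (-1.04, 0.115), day 7 replicate 2 (-1.39, 0.0611) and day 7 replicate 3 (-1.37, 0.0602).

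**Figure D2:**
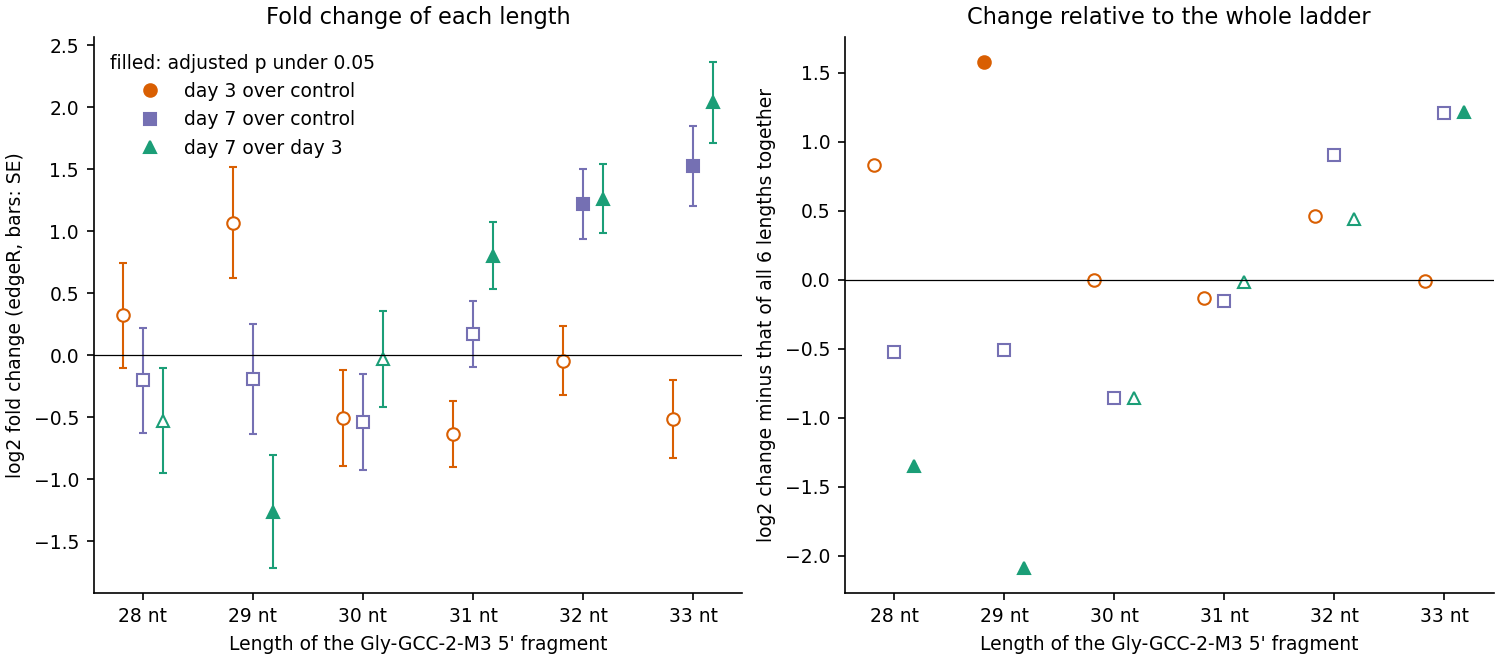
On the left, the edgeR log2 fold change of each length with its standard error; on the right, the log2 change of each length minus that of its parent, for day 3 over control (orange circles), day 7 over control (purple squares) and day 7 over day 3 (green triangles). Filled symbols passed an adjusted p of 0.05; at 33 nt the value for day 7 over control is 1.53 on the left and 1.21, unfilled, on the right.

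Fold changes of single lengths mix the level of the whole ladder with its shape, so the shape was looked at by itself, first as the share of each length among the counts of the 6 fragments. The 31 nt fragment held 62.7%, 61.6% and 67.9% of these counts at day 3, 52.0%, 68.7% and 64.3% at day 7, and 71.4%, 69.0% and 69.4% in controls. Every library of day 3 and day 7 was below every control library in this share. It averaged 64.1% ± 3.36 at day 3, 61.7% ± 8.62 at day 7 and 69.9% ± 1.28 in controls (exact permutation p = 0.1 for each time against control). The 32 nt fragment took 14.6%, 21.7% and 17.7% at day 3, 37.6%, 17.9% and 21.9% at day 7, and 14.4%, 11.6% and 12.6% in controls. Here every laser library was above every control library, the nearest being day 3 replicate 1 and control replicate 1.

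The 33 nt fragment took 1.42%, 1.66% and 2.65% at day 3, 5.54%, 4.06% and 3.84% at day 7, and 1.504%, 2.19% and 2.01% in controls. The 30 nt fragment took 19.3%, 12.0% and 10.8% at day 3, 4.20%, 8.85% and 9.38% at day 7, and 12.3%, 16.2% and 15.0% in controls. At these lengths day 7 stood apart from both other groups, above them at 33 nt and below them at 30 nt, and day 3 overlapped the controls. The 29 nt share was 1.44% ± 0.773 at day 3, 0.343% ± 0.0200 at day 7 and 0.504% ± 0.213 in controls, and the 28 nt share was 0.543% ± 0.286 at day 3, 0.223% ± 0.0495 at day 7 and 0.317% ± 0.142 in controls. At both lengths every day 7 library was below every day 3 library (exact permutation p = 0.1), and each time overlapped the controls.

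**Figure D3:**
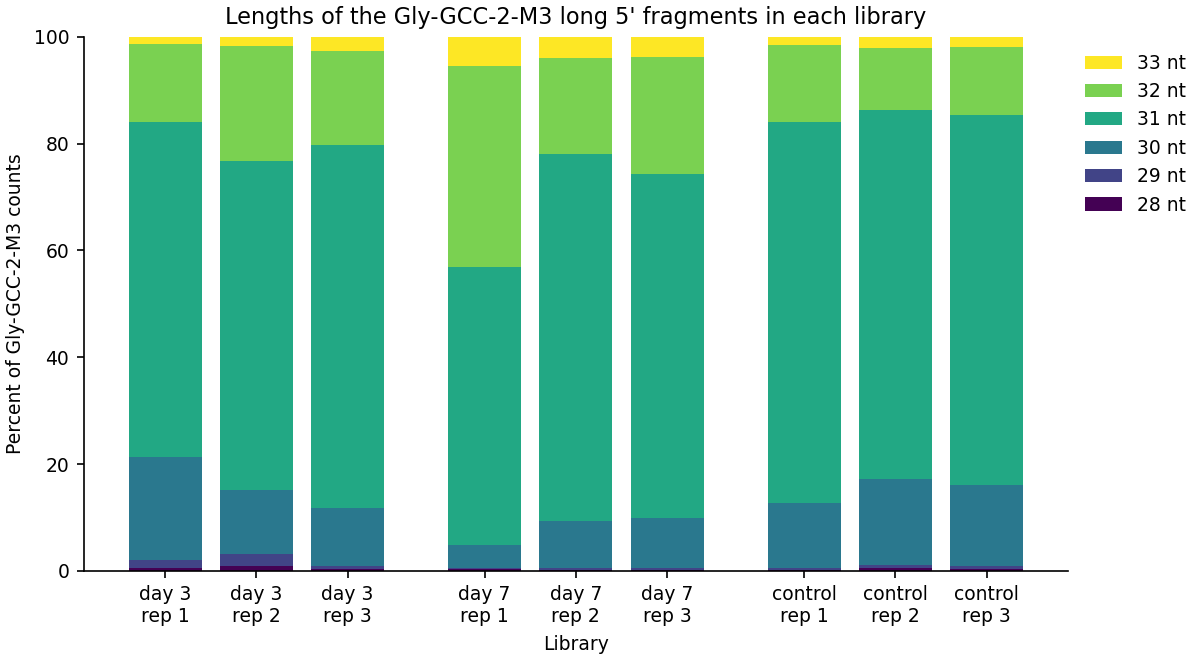
Percent of the counts of the 6 Gly-GCC-2-M3 fragments at each length (colour), 1 bar per library, with day 3, day 7 and control from left to right. The 32 and 33 nt shares together reach 43.2% in day 7 replicate 1 and lie between 13.8% and 15.9% in the controls.

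The 32 and 33 nt fragments together held 19.9% ± 3.69 of these counts at day 3, 30.3% ± 11.3 at day 7 and 14.8% ± 1.09 in controls (SD, n = 3 each). By library the share was 16.0%, 23.3% and 20.3% at day 3, 43.2%, 21.9% and 25.7% at day 7, and 15.9%, 13.8% and 14.6% in controls. Each laser library was above each control library (exact permutation p = 0.1 for each time), with day 3 replicate 1 next to control replicate 1, and day 7 overlapped day 3 (exact permutation p = 0.2). The mean length of the reads was 31.032 ± 0.0847 nt at day 3, 31.259 ± 0.149 nt at day 7 and 31.002 ± 0.0354 nt in controls, so day 7 was longer by 0.257 nt than control and by 0.227 nt than day 3 (exact permutation p = 0.1 each), and day 3 differed from control by 0.0301 nt (exact permutation p = 0.6). The day 7 mean was pulled by replicate 1: without it day 7 was 0.172 nt above control.

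The 33 nt and 30 nt fragments, which lay on opposite sides of the controls at day 7, were also taken as a ratio. Their day 7 shares already lay wholly above and wholly below both other groups. The separation of day 7 in the ratio and its p were therefore fixed in advance, and the ratio gives only the size of the gap. The log2 ratio of 33 nt to 30 nt counts was -3.77, -2.86 and -2.03 at day 3, 0.399, -1.13 and -1.29 at day 7, and -3.03, -2.89 and -2.90 in controls. Day 7 lay above both other groups, by 2.27 over control and 2.21 over day 3 (exact permutation p = 0.1 each), while day 3 was spread on both sides of the controls, which lay between -3.03 and -2.89. In day 7 replicate 1 alone, 33 nt counts exceeded 30 nt counts. A family of 87 such exact tests was made on the ladder, and the smallest adjusted p over it was 0.181, so none of them passes after Benjamini-Hochberg adjustment.

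The shape was also tested with edgeR's exon usage test, in which a parent tRNA takes the place of a gene and its long 5' fragments that of exons; the value is the log2 change of a fragment minus that of its parent, and 93 fragments of parents with at least 2 such rows were fitted. At day 3 against control the 29 nt fragment shifted up, 1 of the 6, by 1.58 relative to its parent (adjusted p = 0.00531), while 5.38% of the 93 fragments shifted in either direction, 4.3% up and 1.08% down. That call was lost without control replicate 1 (1.23, adjusted p = 0.138) and without day 3 replicate 2 (1.16, adjusted p = 0.134). At 28 nt the value was 0.83 (adjusted p = 0.350).

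At day 7 against control 0 of the 6 passed this test, while 3.23% of the 93 did, 1.08% up and 2.15% down, although at an unadjusted p under 0.05 there were 3, against 18.3% of the 93: 33 nt at 1.21 (adjusted p = 0.0772), 32 nt at 0.90 (adjusted p = 0.191) and 30 nt at -0.86 (adjusted p = 0.227). The value at 33 nt passed without day 3 replicate 2 (1.21, adjusted p = 0.0475) and without day 3 replicate 3 (1.21, adjusted p = 0.0308). At day 7 against day 3, 3 of the 6 shifted, against 8.6% of the 93, 3.23% up and 5.38% down: 33 nt up by 1.22 (adjusted p = 0.0363), and down by values of -2.09 at 29 nt (adjusted p = 0.000236) and -1.35 at 28 nt (adjusted p = 0.0195). The shift at 29 nt held in every alternative, that at 28 nt was lost without day 3 replicate 2 (-0.88, adjusted p = 0.190), day 7 replicate 2 (-1.23, 0.0791) or day 7 replicate 3 (-1.31, 0.0562), and that at 33 nt was lost without day 3 replicate 1 (1.03, 0.191), day 3 replicate 2 (1.14, 0.0932), day 7 replicate 1 (1.08, 0.102), day 7 replicate 2 (1.27, 0.0679) or day 7 replicate 3 (1.31, 0.0511). At 31 nt the shift was between -0.15 and -0.02 in all 3 comparisons and did not pass, as a fragment that makes up most of its parent moves little relative to it.

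Among the 6 fragments, levels of neighbouring lengths had their highest correlations at the 2 ends of the ladder. Over the 9 libraries, log2 CPM of 28 and 29 nt had a Pearson r of 0.84 (Spearman rho 0.80) and that of 32 and 33 nt 0.80 (rho 0.67). The neighbours between them had 0.33 (rho 0.28) for 29 and 30 nt, 0.44 (rho 0.43) for 30 and 31 nt and -0.01 (rho 0.15) for 31 and 32 nt. Of lengths that are not neighbours, 30 and 32 nt had -0.81 (rho -0.62). These are descriptions over 9 libraries that fall into 3 groups and share depth and scaling, and CPM of fragments this abundant are bound together by their common total. Of 191 other fragments compared, those most like the 31 nt fragment by Pearson r were the 31 nt fragment of Gly-CCC-3-M2 (r = 0.80, rho = 0.77), a 17 nt 3' fragment of Gln-CTG-2 (r = 0.76, rho = 0.68) and the 31 nt fragment of His-GTG-2 (r = 0.73, rho = 0.70). The most unlike were 32 nt of Val-CAC-4 (r = -0.93, rho = -0.78), 32 nt of Lys-CTT-2 (r = -0.91, rho = -0.97) and 29 nt of Lys-CTT-3 (r = -0.91, rho = -0.98).

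Other glycine tRNAs give fragments that are close in sequence, which allows the fragment ends to be compared on nearly the same sequence. The 31 nt forms are shown, with the bases that differ from the Gly-GCC-2-M3 fragment in capitals:
tRF-1:31-Gly-GCC-1: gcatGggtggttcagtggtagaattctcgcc
tRF-1:31-Gly-CCC-3-M2: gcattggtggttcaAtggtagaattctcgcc
tRF-1:31-Gly-CCC-2: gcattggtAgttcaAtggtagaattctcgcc
Counted from 1 at the 5' end, Gly-GCC-1 differs by T5G, Gly-CCC-3-M2 by G15A and Gly-CCC-2 by G9A and G15A; at 33 nt both Gly-CCC parents also differ by G33C, at the first anticodon base. These relatives were far less abundant: the 31 nt fragment of Gly-GCC-1 averaged 24338 ± 5551 CPM at day 3, 17772 ± 2329 CPM at day 7 and 13643 ± 1144 CPM in controls. That of Gly-CCC-3-M2 averaged 334 ± 53.3 CPM at day 3, 375 ± 26.0 CPM at day 7 and 465 ± 20.05 CPM in controls, and that of Gly-CCC-2 averaged 453 ± 195 CPM at day 3, 361 ± 22.1 CPM at day 7 and 269 ± 21.6 CPM in controls. Fragments that differ by a single base cannot be told apart from reads with a base error at that position, and the part of such reads was not tested.

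Set against Gly-GCC-1, the Gly-GCC-2-M3 ladder was longer in 9 of 9 libraries. Over the shared lengths of 29 to 33 nt, its mean length exceeded that of Gly-GCC-1 by 0.146 ± 0.0412 nt (SD, n = 9; exact sign-flip permutation test over libraries p = 0.00391, the smallest it can give; adjusted over 5 parents 0.00488). The other parents lack some of these lengths, and each was compared over the lengths it shares. Over 30 to 33 nt the Gly-GCC-2-M3 ladder was shorter than that of Gly-CCC-3-M2 by a difference of -0.123 ± 0.0570 nt, and over 30 to 32 nt shorter than that of Gly-TCC-1 by -0.225 ± 0.182 nt, each in 9 of 9 libraries (same exact permutation p). For Gly-CCC-1 only 30, 32 and 33 nt were listed, so its difference of -1.05 ± 0.340 nt, in 9 of 9 libraries, leaves out the 31 nt fragment that holds most of the Gly-GCC-2-M3 counts. Over 30 to 33 nt the difference from Gly-CCC-2 was -0.181 ± 0.174 nt and of that sign in 7 of 9 libraries (exact permutation p = 0.0234); the other two were controls. Gly-TCC-1 had as few as 39 counts in a library over the lengths compared, and Gly-GCC-1 at least 21567. A 34 nt tiRNA of Gly-TCC-1 was also listed and lay outside the lengths compared. Lengths were counted from the 5' end, and the place of the anticodon in Gly-TCC-1 was not determined. Its difference therefore does not say which ladder ended nearer to the anticodon.

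**Figure D4:**
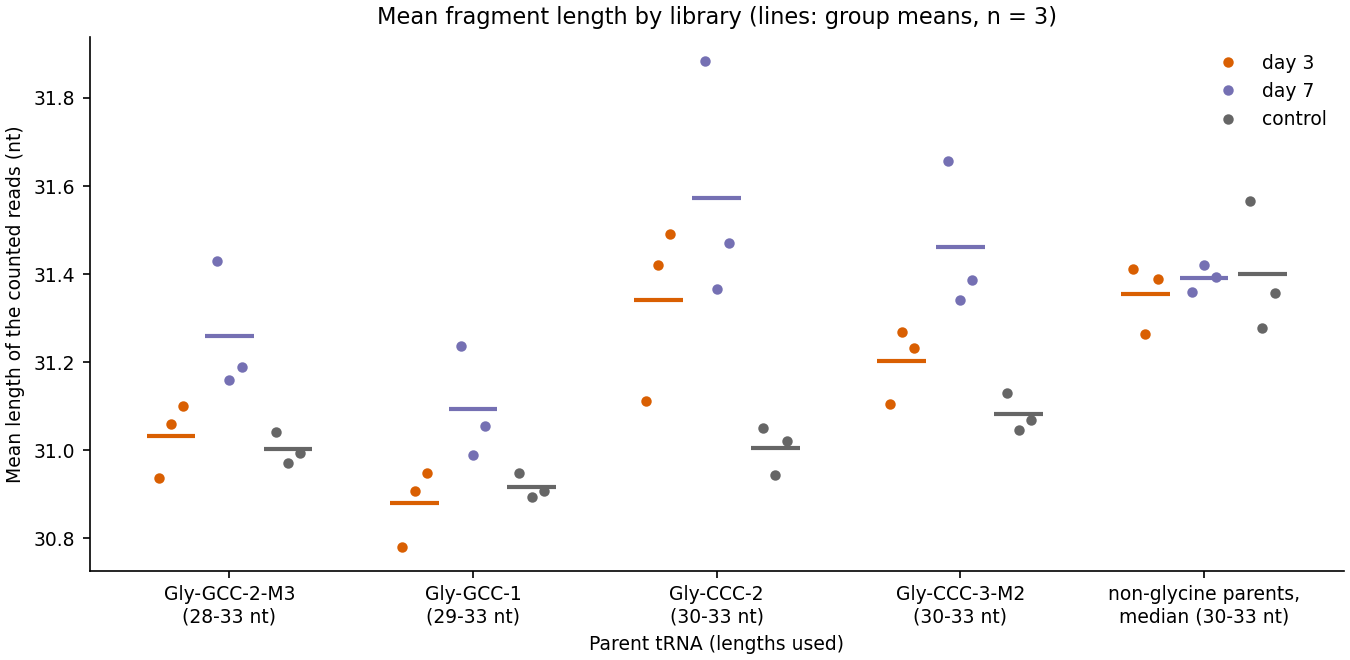
Mean length of the counted reads on the y axis, in nt, for the Gly-GCC-2-M3 fragments, 3 other glycine parents and the median over 13 parents of other amino acids. Each point is a library (day 3 orange, day 7 purple, control grey) and each line a group mean (n = 3); for Gly-GCC-2-M3 the means are 31.032, 31.259 and 31.002 nt in this order.

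The gap to Gly-GCC-1 was larger in the laser libraries. Over all lengths of each, the Gly-GCC-2-M3 ladder was longer by 0.177 ± 0.0143 nt at day 3, 0.178 ± 0.0313 nt at day 7 and 0.107 ± 0.00620 nt in controls, and every laser library was above every control library (exact permutation p = 0.1 for each time; p = 1 for day 7 against day 3). The counts of Gly-GCC-1 were also set against the Gly-GCC-2-M3 counts of the same length. At 29 nt they came to 14.2% ± 2.75 at day 3, 7.10% ± 0.453 at day 7 and 5.92% ± 1.14 in controls. At 31 nt they came to 7.48% ± 1.57 at day 3, 4.06% ± 0.419 at day 7 and 2.78% ± 0.245 in controls, and at 33 nt to 2.85% ± 0.732 at day 3, 1.20% ± 0.290 at day 7 and 0.981% ± 0.102 in controls. At each of the 6 lengths every day 3 library was above every control library in this percent (exact permutation p = 0.1). At 31 nt every day 3 library was already above the controls in Gly-GCC-1 CPM and below them in Gly-GCC-2-M3 CPM. The separation and its p at that length were therefore fixed in advance. Between day 3 and control, CPM ranges did not overlap in 41.5% of the 200 fragments.

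The nearest relatives were longer at day 7 too. Over all its lengths, the mean length of Gly-GCC-1 was 31.08 ± 0.126 nt at day 7 and 30.90 ± 0.0385 nt in controls, a difference of 0.186 nt, and its share of 32 nt or more was 18.3% ± 8.85 at day 7 and 8.73% ± 0.566 in controls. Gly-CCC-2 had 31.57 ± 0.274 nt at day 7 and 31.005 ± 0.0557 nt in controls, and Gly-CCC-3-M2 had 31.46 ± 0.171 nt at day 7 and 31.08 ± 0.0438 nt in controls. For these 3 parents every day 7 library was above every control library (exact permutation p = 0.1 each), while Gly-CCC-1 and Gly-TCC-1 overlapped, with differences of -0.0789 and -0.0368 nt (exact permutation p = 0.3 and 0.9). The lengths compared for Gly-TCC-1 left out its 34 nt tiRNA. In 15 such tests over 5 parents the smallest adjusted p was 0.25.

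The parents of other amino acids were read as a check of the libraries. Over 13 of them, the median of the mean length within 30 to 33 nt was 31.36 nt at day 3, 31.39 nt at day 7 and 31.40 nt in controls (exact permutation p = 0.8 for day 3 and p = 1 for day 7 against control). With that median taken off in each library, the Gly-GCC-2-M3 fragments were longer at day 7 than in controls by 0.266 nt, against 0.257 nt before. The median share of 32 and 33 nt over 12 such parents was 50.5% ± 3.59 at day 7 and 46.6% ± 5.53 in controls (exact permutation p = 0.4), and with it taken off the day 7 excess of the Gly-GCC-2-M3 share was 11.5 points, against 15.5 points before (exact permutation p = 0.3).

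Of the related fragments, taken by parent name, those of Gly-GCC-1 are the nearest. Of its 6 long 5' fragments 2 rose at day 3 and 2 at day 7 against control, with medians of the log2 fold change of 1.21 and 0.42; of all 200 fragments 10% rose and 11.5% fell at day 3, and 3.5% rose and 0.5% fell at day 7. The 2 that rose at day 7 had the same lengths as those of Gly-GCC-2-M3, with 1.71 at 32 nt (edgeR adjusted p = 0.00582) and 1.81 at 33 nt (adjusted p = 0.00383). Of 11 Gly-CCC long 5' fragments 2 rose at day 3 and 3 at day 7, and of 4 nuclear Gly-TCC long 5' fragments 0 passed at either time. Of the 37 fragments from the 3' side of tRNAs, 14 fell and 0 rose at day 3, and 0 passed at day 7 against control. The lists were counted with TMM scaling alone. At day 3 the split over all fragments was 49 higher and 14 lower with the listed counts as library sizes. It was 5 higher and 68 lower without the reads of the 6 fragments, so the directions given for the lists may depend on the scaling. These lists were chosen with earlier results of the same libraries known and their counts were not tested against each other.

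The same 3 tRNAs left little else in the table. Beside the 6 fragments, 3 shorter 5' fragments of 16, 22 and 24 nt carried the parent name, and together they came to 0.126 ± 0.0489 counts per 1000 counts of the 6 fragments at day 3, 0.0879 ± 0.0511 at day 7 and 0.0849 ± 0.0142 in controls. The 16 nt fragment had 17.9, 26.7 and 11.0 CPM at day 3, 59.0, 24.6 and 24.8 CPM at day 7, and 41.7, 30.3 and 31.5 CPM in controls. It rose at day 7 against day 3 by 1.17 on the log2 scale (SE 0.386; edgeR adjusted p = 0.0252), and the groups overlapped. That call was lost in 9 of 19 alternatives, among them the listed counts as library sizes (0.57, adjusted p = 0.332), mapped totals alone (0.94, 0.102), DESeq2 (0.94, 0.0836) and fits without day 7 replicate 1 (0.90, 0.121), day 3 replicate 1 (1.17, 0.0768) or day 3 replicate 3 (0.89, 0.0868). The 22 nt fragment averaged 14.8 ± 7.70 CPM at day 3, 11.1 ± 4.78 CPM at day 7 and 13.4 ± 1.68 CPM in controls, and the 24 nt fragment 30.6 ± 13.4 CPM at day 3, 14.8 ± 10.2 CPM at day 7 and 11.8 ± 4.66 CPM in controls.

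From the 3' side, 4 listed fragments of 17, 18, 22 and 22 nt matched at least 1 of the 3 tRNAs. Of these, tRF-53:74-Gly-GCC-4 matched tRNA of this anticodon alone, and the other three also matched tRNAs of the anticodon CCC. They came to 0.131 ± 0.0657 counts per 1000 counts of the 6 fragments at day 3, 0.150 ± 0.0754 at day 7 and 0.268 ± 0.0766 in controls (exact permutation p = 0.2 for each time). tRF-53:74-Gly-GCC-4 had 10.9, 6.55 and 22.0 CPM at day 3, 9.97, 13.4 and 2.76 CPM at day 7, and 11.4, 44.6 and 32.9 CPM in controls, with overlap of all groups. The longest fragment listed for any tRNA had 40 nt, which is shorter than the 3' piece that any of the 6 cuts would leave, so the other side of the cut was not analysed here.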

How the data were processed

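tRNA-derived fragments were counted in 9 libraries. Per the labels' protocols, RNA was deacylated, freed of cyclic phosphates, phosphorylated at 5' ends and demethylated (m1A, m3C) before ligation, and libraries were selected on a gel. The authors deposited raw read counts and CPM per fragment, per the file headers; the submitters' processing notes name FastQC, Bowtie, edgeR and the build mm10, without versions or roles. Count divided by CPM gave the mapped reads of each library. Every listed fragment reached 20.1 CPM in some library.

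Counts were tested with edgeR 4.0.16 (R 4.3.3): mapped totals with TMM factors, quasi-likelihood F tests of group means over all 9 libraries, two-sided, Benjamini-Hochberg adjustment over 200 fragments, threshold 0.05. The filterByExpr filter removed 0 fragments; a log2 fold change divided by the square root of F gave its SE. Length usage was tested with diffSpliceDGE on 93 fragments. Shares, ratios and mean lengths, which are computed from counts, were compared by exact permutation over 20 assignments. PCR reads without molecular identifiers are not independent molecules. Code was tested on simulated data. Named fragments were the 6, all other Gly-GCC rows, at most 2 examples each of Gly-CCC and Gly-TCC, and the 3 most and 3 least like the 31 nt fragment; Gly-TCC examples are given by their counts. Members and lists were chosen with earlier results of these data known.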

Additional observations from a re-analysis of the deposited data

Results flagged for a closer look

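Several lengths of the Gly-GCC-2-M3 fragments differed between the 2 times after laser, each time being set against the same controls, so that day 7 against day 3 is itself the test of the difference. By edgeR's test the log2 fold change of day 7 over day 3 was -1.26 for the 29 nt fragment (adjusted p = 0.0373), 0.81 for the 31 nt fragment (adjusted p = 0.0254; 0.048 with the listed counts as library sizes, adjusted p = 0.848), 1.26 for the 32 nt fragment (adjusted p = 0.00410) and 2.04 for the 33 nt fragment (adjusted p = 0.000684). Of 20 alternatives, 8 lost the fold change call at 29 nt, 13 that at 31 nt, 1 that at 32 nt and 0 that at 33 nt. Relative to the parent, the usage test gave -1.35 for 28 nt (adjusted p = 0.0195), -2.09 for 29 nt (adjusted p = 0.000236) and 1.22 for 33 nt (adjusted p = 0.0363). Without day 3 replicate 2 the usage calls at 28 and 33 nt were lost (usage test adjusted p = 0.190 and 0.0932), as they were in several other fits. The share of 29 nt in the counts of the 6 fragments was 1.10 percentage points lower at day 7 than at day 3 (day 7 minus day 3, -1.10); every day 7 library lay on one side of the control mean of 0.504% and every day 3 library on the other, and this difference in direction was not tested. Length usage and fold change of a fragment rest on the same counts, and neighbouring lengths share their total, so these are not separate findings.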

How the results depend on the processing

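Of the alternatives, those that changed the library size had the widest effect. Relative to TMM, the median log2 fold change of all 200 fragments moved by -0.69 at day 3 against control when the counts of the 6 fragments were taken out of the mapped totals, and by 0.41 with the listed counts. At day 7 against control it moved by between -0.28 (listed counts) and -0.13 (RLE factors). At day 7 against day 3 it moved by -0.65 with the listed counts, -0.27 with mapped totals alone, -0.22 with RLE factors and 0.49 after taking out the 6. Against the median of all fragments, 2 or 3 of the 6 lay above it under every scaling in each comparison. Day 3 against control had 1 of the 6 called higher with the listed counts, with a mean of at least 100 CPM, with DESeq2 and at an adjusted p under 0.1, and 1 called lower at that threshold, with mapped totals alone and in a fit of the 2 groups; taking out the 6 gave 4 lower. Day 7 against control had 1 higher when Gly-GCC-1 was added to each length, and 1 lower, the 30 nt fragment, with mapped totals alone and with the listed counts. Day 7 against day 3 had 1 higher and 3 lower with the listed counts, and 0 lower after taking out the 6, with limma-voom and at a threshold of 0.01. In length usage, a fit of the 2 groups gave 1 higher at day 7 against control, and 0 higher and 1 lower at day 7 against day 3.

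These values turned sign, and none of them passed before. Day 3 against control, 28 nt was -0.38 after taking out the 6, and 32 nt was 0.030 with RLE factors and with DESeq2, 0.00798 with mapped totals alone, 0.38 with the listed counts and 0.0708 with a mean of at least 100 CPM. Day 7 against control, 31 nt was -0.16 with mapped totals alone, -0.18 with the listed counts, -0.0911 after taking out the 6 and -0.11 with Gly-GCC-1 added, where 16 nt was -0.053; the share of the 6 fragments was -0.175 points with listed counts as the denominator. Day 7 against day 3, 30 nt was 0.36 after taking out the 6. Their cause was not tested.

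With each replicate left out in turn, the ranges were as follows. Day 3 against control had 0 to 1 called higher and 0 to 1 lower, day 7 against control had 0 to 2 higher, and day 7 against day 3 had 0 to 1 lower; for length usage the counts were 0 to 1 higher in each comparison and 1 to 2 lower at day 7 against day 3. The log2 fold change ranged from -0.15 to 0.66 at 28 nt and from -0.22 to 0.13 at 32 nt for day 3 against control. For day 7 against control it ranged from -0.43 to 0.033 at 28 nt, from -0.46 to 0.058 at 29 nt, from -0.0079 to 0.43 at 31 nt and from -0.022 to 0.48 at 16 nt, and for day 7 against day 3 from -0.31 to 0.37 at 30 nt. The usage shift ranged from -0.33 to 0.14 at 30 nt and from -0.29 to 0.18 at 33 nt for day 3 against control, and from -0.10 to 0.058 at 31 nt for day 7 against day 3. The mean length ranged from -0.0037 to 0.0776 nt for day 3 over control, the gap to Gly-GCC-1 from -0.0140 to 0.0172 nt for day 7 over day 3, and the share of mapped reads from -0.139 to 2.05 points for day 7 over control.

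Calls over all 200 fragments numbered 43, 8 and 69 in the 3 comparisons in the order of the report; they moved to between 22 and 73 at day 3 against control, between 3 and 17 at day 7 against control, and between 31 and 90 at day 7 against day 3. Deviations of libraries of like number had correlations between -0.34 and 0.31, over 0.1 in 2 of 9 pairs. With 3 libraries a group these cannot decide whether the numbers pair the libraries. With the replicate block, day 7 against day 3 had 0 of the 6 called lower, and in length usage 0 higher and 1 lower, and the usage value at 30 nt for day 3 against control was 0.0249; at day 7 against control the calls at 32 and 33 nt had adjusted p = 0.0493 and 0.0227 in edgeR. Depth was no limit for the 6 fragments, the lowest count being 1596 in a library, while 3 libraries a group limit every test.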
